A study of Mus musculus with 4 samples.

Results

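PIWI-interacting RNAs (piRNAs) were counted alongside microRNAs in small RNA libraries from the plasma vesicles of tumor-bearing mice. A piRNA entry is 1 piRNA name at 1 genomic position, and it was taken here when its name did not start with the mouse microRNA prefix and it was listed in all 4 libraries. By this rule there were 51 piRNA entries among 1860 listed features, the other 1809 being microRNAs. The 51 entries carried 39 distinct piRNA numbers, since 7 numbers were listed at several positions and accounted for 19 entries. The rule used no count, although within a pool number every listed feature had 10 or more UMIs in at least 1 library.

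All mice were C57BL/6 animals given Lewis lung carcinoma (LLC) cells, a mouse lung tumor line, into the vein. They were either wild type (WT) or gp49B-/- (KO), lacking an inhibitory receptor of myeloid cells. Blood was taken into EDTA at day 21, and exosomes, small vesicles shed by cells, were precipitated from the plasma with ExoQuick reagent. Each genotype had 2 libraries: WT pool 1 and WT pool 2 each combined 3 plasma samples, and KO pool 1 and KO pool 2 each combined 4. No library came from mice without tumor cells, so the comparison addressed is that of genotype within tumor-bearing mice. The labels do not say whether different mice went into the pools of a genotype, so p-values measure the spread between these pools only. Nor do they say that libraries of 1 pool number were handled together, so comparisons within a pool number rest on the number in the titles. A precipitate holds RNA-protein particles as well as vesicles, and whether a given piRNA lay inside a vesicle was not tested.

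piRNAs are small RNAs, slightly longer than microRNAs, that bind PIWI proteins and guide them to complementary transcripts. They are best known from the germ line, where they silence transposons, and in the mouse many are cut from long single-stranded precursors that come from genomic clusters. Collections of piRNA names made from small RNA sequencing can also hold fragments of other abundant RNAs, and a name in such a collection does not show that the RNA was bound to a PIWI protein. The names in these tables hold a chromosome, a start, an end and a strand, but their genome build is not stated. GRCm38 is named in the submitters' processing notes without being tied to the piRNA names, and setting the positions against that build's gene annotation did not show that they belong to it. Positions are therefore printed as the names give them, with no gene or repeat annotation and no sequence.

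Unique molecular identifiers (UMIs) tag each RNA before amplification, so a UMI count estimates how many molecules were captured. Summed over the 1860 shared features, the libraries held 1606247 UMIs (WT) and 1728424 (KO) in pool 1 and 3178879 (WT) and 3645497 (KO) in pool 2. MicroRNAs of red blood cells, which are markers of cell contents released into plasma, made up 37.0% to 46.1% of UMIs in every library. MicroRNAs typical of liver took 11.2% and 7.40% in WT and KO pool 1 against 27.2% and 20.2% in WT and KO pool 2, and those of muscle took 3.64% in KO pool 1 and at most 0.683% in the other 3 libraries. For the germ line, the tissue where piRNAs are best known, 11 of the 12 microRNAs on a male germ cell list were listed, none at 0. Of the 1809 microRNAs listed in all 4 libraries, 1780 had no 0 either, so this presence is not particular to the list. Its summed levels were 0.0365%, 0.0353%, 0.0126% and 0.0139% of UMIs in WT pool 1, KO pool 1, WT pool 2 and KO pool 2. The part of these other RNAs in the piRNA values was not tested.

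Most piRNA entries were counted at low depth. The median entry had 44 UMIs (WT) and 38 (KO) in pool 1 and 27 (WT) and 32 (KO) in pool 2, close to the medians of 47, 43, 31 and 42 for microRNAs in the same order. Of the 51 entries, 36 stayed under 100 UMIs in all 4 libraries and 7 had 100 or more in every library. A count of 0 was met in 12 entries (23.5%) and in 29 microRNAs (1.60%). The zeros among piRNAs fell in pool 1 only, with 3 in WT pool 1 and 9 in KO pool 1. In the pool 1 libraries no feature had between 1 and 9 UMIs, the smallest count above 0 being 10, whereas counts went down to 1 in WT pool 2 and 2 in KO pool 2. A 0 in pool 1 is thus given here as listed at 0, with no ratio against it within the pool. The fit over all libraries did include 6 entries with a 0 and took it as a count of 0. None of the 12 entries with a 0 exceeded 51 UMIs in any library.

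The piRNA entries together made up a small share of each library, and the share was higher in both libraries of pool 1 than in both of pool 2. They held 28498 UMIs in WT pool 1, or 1.77% of all UMIs on shared features (95% exact binomial interval 1.75% to 1.79%). KO pool 1 held 18755 piRNA UMIs, or 1.09% (1.07% to 1.10%). WT pool 2 held 8660, or 0.272% (0.267% to 0.278%), and KO pool 2 held 15248, or 0.418% (0.412% to 0.425%). The KO values lay between the 2 WT values. The mean share was 1.02% ± 1.06 (SD, n = 2) in WT and 0.752% ± 0.472 (SD, n = 2) in KO, with p = 1 in a two-sided exact permutation test. With 2 libraries against 2 there are 6 arrangements, and the smallest p this test can give is 0.333. KO minus WT was -0.272 percentage points with all libraries, 0.479 without WT pool 1 and 0.0618 without KO pool 2. In bulk plasma, fewer vesicles of one source and less piRNA per vesicle cannot be told apart. Intervals on counts and shares cover counting error only.

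The direction between genotypes was opposite in the 2 pool numbers. To compare libraries, counts were scaled with the trimmed mean of M-values (TMM), a method that sets the typical feature equal between libraries. On this scale the summed piRNA level in KO was 0.686 times WT in pool 1 (0.673 to 0.698) and 1.29 times WT in pool 2 (1.26 to 1.32). Scaled by library totals instead, the ratios were 0.612 and 1.54. The summed TMM-scaled level in pool 1 was 2.23 times that in pool 2 for WT and 1.19 times for KO, a narrower gap between pools than in the shares.

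**Figure D1:**
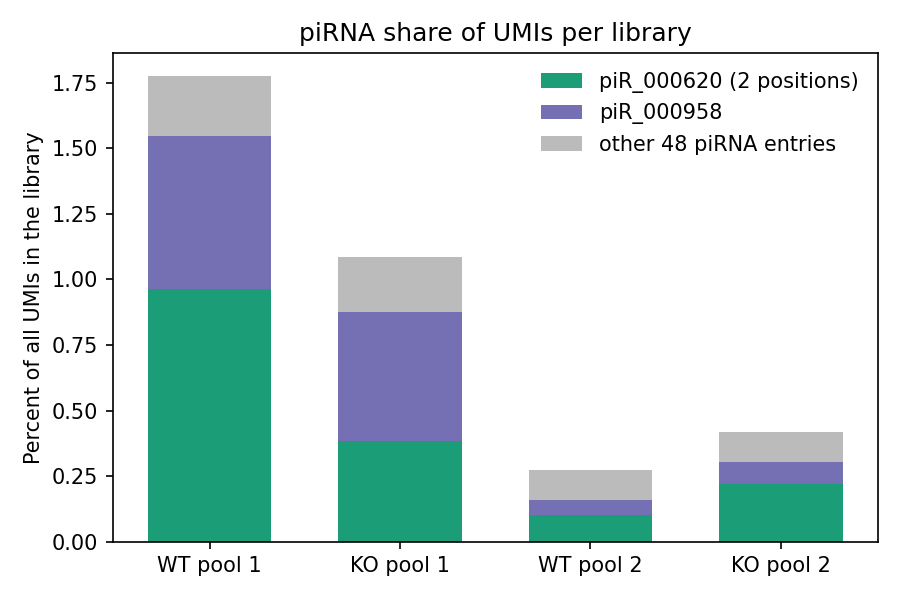
Percent of all UMIs in each library (vertical axis) that came from piRNA entries, stacked by piR_000620 at its 2 positions, piR_000958 and the other 48 entries, for WT and KO pool 1 and pool 2 (1 library per bar, no error bars). The total falls from 1.77% in WT pool 1 to 0.272% in WT pool 2, and most of each bar belongs to piR_000620 and piR_000958.

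A pair of piRNA numbers supplied most of this signal. piR_000620 and piR_000958 together took 87.1% of piRNA UMIs (WT) and 80.7% (KO) in pool 1 and 58.0% (WT) and 72.7% (KO) in pool 2. Without piR_000620 the summed KO over WT ratio on the TMM scale was 0.970 in pool 1 and 0.969 in pool 2. Scaled by library totals it was 0.866 and 1.15, so on that scale the directions stayed opposite without it. Without either number, the remaining 48 entries took 0.229%, 0.210%, 0.114% and 0.114% of UMIs in WT pool 1, KO pool 1, WT pool 2 and KO pool 2. Their KO over WT ratio was 1.02 in pool 1 (0.978 to 1.07) and 0.839 in pool 2 (0.803 to 0.878). Leaving these numbers out was chosen after their values were seen.

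piR_000620 is 30 bases long and was listed on chromosomes 18 and 3. At chr18:54824345-54824374 on the minus strand it had 11785 UMIs (WT) and 4576 (KO) in pool 1 and 2293 (WT) and 6049 (KO) in pool 2. WT pool 1 was the highest library and WT pool 2 the lowest, so the WT pair enclosed the KO pair. KO was 0.405 times WT in pool 1 (0.391 to 0.419) and 1.93 times WT in pool 2 (1.84 to 2.03). The fitted log2 fold change over both pools was -0.42 with an SE of 0.79. At chr3:5843782-5843811 on the plus strand the counts were 3716, 2072, 924 and 1998 in WT pool 1, KO pool 1, WT pool 2 and KO pool 2. That position too was highest in WT pool 1 and lowest in WT pool 2, with KO over WT ratios of 0.581 and 1.58. The ratio of the chromosome 18 count to the chromosome 3 count was 3.17 (WT) and 2.21 (KO) in pool 1 and 2.48 (WT) and 3.03 (KO) in pool 2. How reads were divided between positions of 1 piRNA number is not stated in the labels or files used here, so the split between positions is uncertain, and neither position is an independent observation of the other.

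piR_000958, of 27 bases at chr17:39456228-39456254 on the plus strand, had 9312 UMIs (WT) and 8485 (KO) in pool 1 and 1808 (WT) and 3035 (KO) in pool 2. Both pool 1 libraries stood above both pool 2 libraries. On the TMM scale pool 1 was 3.49 times pool 2 in WT and 2.69 times in KO, whereas KO was 0.949 times WT in pool 1 and 1.23 times in pool 2. The fitted log2 fold change was 0.02 with an SE of 0.84.

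piR_032974, of 28 bases at chr4:130021751-130021778 on the plus strand, ran the other way between pools. It had 109 UMIs (WT) and 95 (KO) in pool 1 and 776 (WT) and 458 (KO) in pool 2. On the TMM scale these were 40.3, 36.6, 423.5 and 183.1 counts per 1000000 TMM-scaled UMIs (CPM) in the same order. Both pool 2 libraries thus stood well above both pool 1 libraries, though the gap between pools is smaller when counts are scaled by library totals. KO was 0.908 times WT in pool 1 and 0.432 times in pool 2, and the fitted log2 fold change was -1.08 with an SE of 1.01.

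The other abundant entries varied less. piR_002643, of 28 bases at chr3:5843705-5843732 on the plus strand and 49 bases from piR_000620 there, had 732, 785, 893 and 1187 UMIs in WT pool 1, KO pool 1, WT pool 2 and KO pool 2. piR_017405, of 22 bases at chr11:65550994-65551015 on the minus strand, had 433, 514, 309 and 445 UMIs in the same order, and both KO libraries stood above both WT libraries on the TMM scale at 188 ± 14.3 against 164 ± 6.00 CPM (SD, n = 2). piR_032865, of 23 bases at chr2:116876592-116876614 on the plus strand, had 209, 207, 176 and 187 UMIs. Its scaled levels overlapped between genotypes.

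Several abundant numbers were listed at more than 1 position. piR_004374 had 152, 160, 243 and 238 UMIs on chromosome 9 and 122, 109, 94 and 138 on chromosome 18, in WT pool 1, KO pool 1, WT pool 2 and KO pool 2. piR_000622 had 164, 118, 81 and 113 UMIs at its highest position, on chromosome 3. Its other positions, on chromosomes X, 18 and 2, had between 18 and 100 UMIs. Summed over its 4 positions, piR_000622 in KO was 0.783 times WT in pool 1 (0.666 to 0.920) and 1.01 times in pool 2 (0.843 to 1.22).

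**Figure D2:**
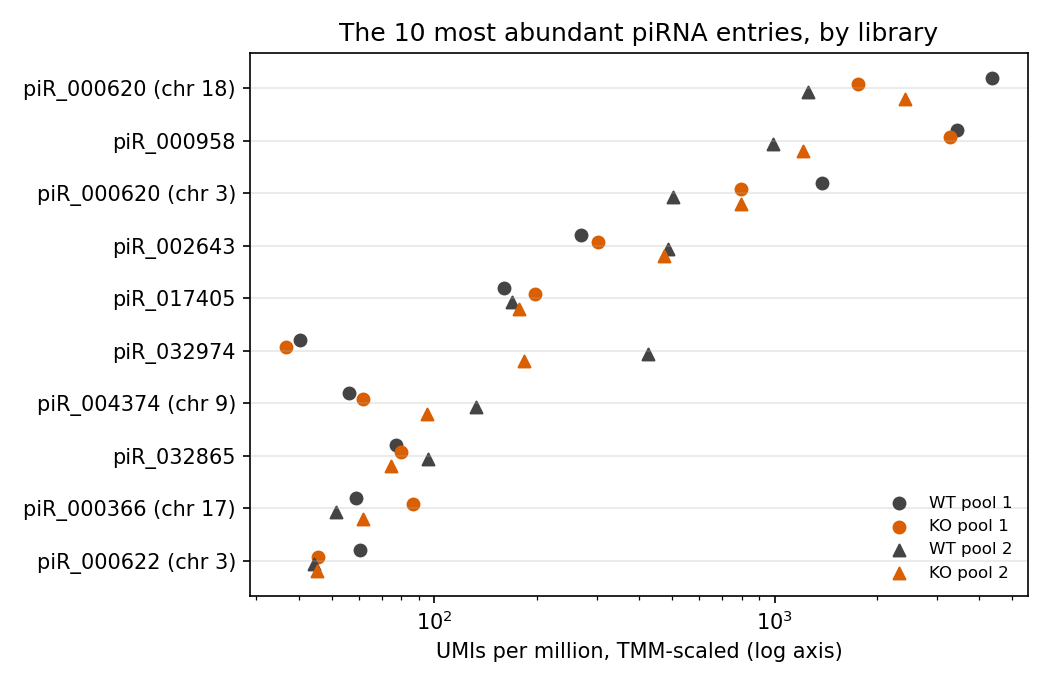
TMM-scaled CPM (counts per 1000000 TMM-scaled UMIs, horizontal log axis) of the 10 most abundant piRNA entries in each of the 4 libraries, with circles for pool 1, triangles for pool 2, grey for WT and orange for KO (1 library per point). piR_000620 and piR_000958 lie far above the rest, and piR_032974 sits near 40 in pool 1 and above 180 in pool 2.

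Across all features, no piRNA or microRNA was called different between genotypes. edgeR's quasi-likelihood test with Benjamini-Hochberg adjustment over 1842 features called 0 at an adjusted p under 0.05 (0% of features tested). An unadjusted p under 0.05 was found for 31 features (1.68%), by DESeq2 for 27 and by limma-voom for 24. Of the 51 piRNA entries, 45 passed the filter on low counts, including 6 with a 0, and 6 did not pass. Among those 45, edgeR called 0 and gave 1 an unadjusted p under 0.05 (2.22%). The estimates were higher in KO for 19 and lower for 26, with a median log2 fold change of -0.11, beside -0.03 over all features tested. The lowest adjusted p by edgeR's quasi-likelihood test was 0.9998, for piRNAs and for all features. With 1 library left out, edgeR made calls only without KO pool 2, where the lone KO library was assumed to vary like the WT libraries. The piRNAs among them (piR_001570 on chromosome 2, piR_016635 and piR_016651) were all listed at 0 in KO pool 1. The smallest count above 0 in that library was 10, so these calls rest on taking a 0 as a true count. The SE of single entries, which was derived from the F statistic of the same test, was often as large as their estimate.

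Within each pool number, where WT and KO libraries could be set side by side, 39 entries were above 0 in all libraries. KO exceeded WT for 21 of them in pool 1 and fell below it for 18, with a median ratio of 1.04. In pool 2, 19 were higher and 20 lower, with a median of 0.992. Scaling by library totals gave 15 higher in pool 1 (median 0.929) and 23 higher in pool 2 (median 1.18), so the side on which the typical entry fell depended on the scaling. The direction was higher in both pools for 11 entries, lower in both for 10 and opposite for 18. In TMM-scaled UMIs, no entry differed by 2-fold or more toward the same genotype in each pool, while in reads 1 did (piR_004086). Of all 1819 features above 0 in every library, 0.11% reached 2-fold higher in KO in each pool and 0.495% reached 2-fold lower in each.

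**Figure D3:**
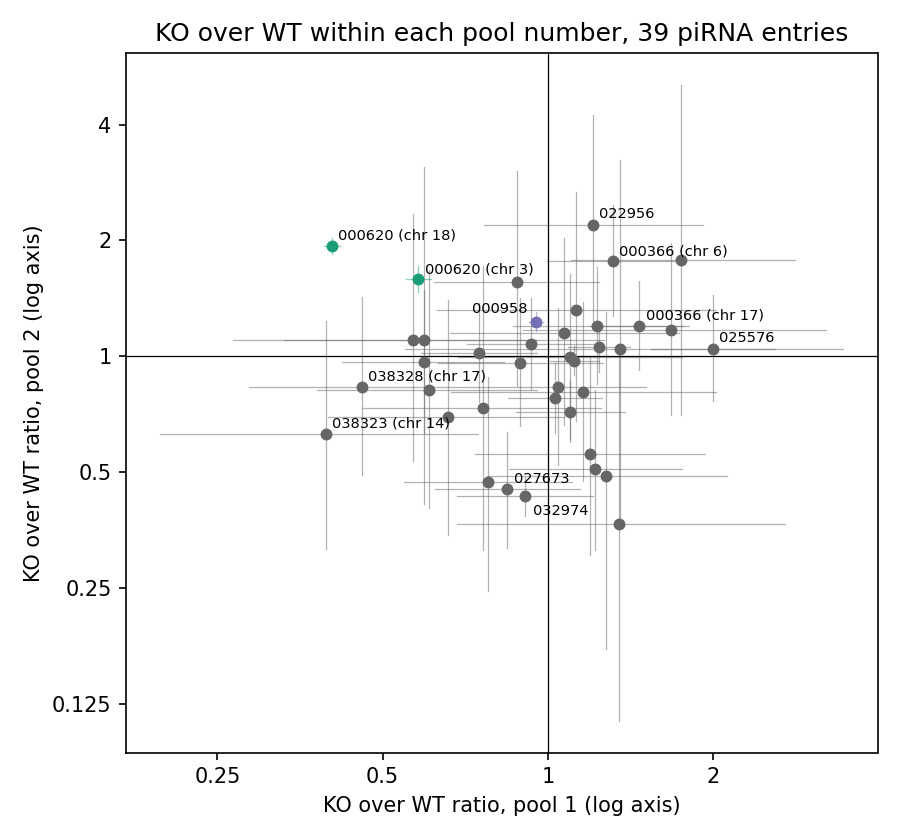
KO over WT ratio of TMM-scaled UMIs in pool 1 (horizontal log axis) against pool 2 (vertical log axis) for the 39 piRNA entries above 0 in all libraries, where lines are 95% counting intervals of 1 library against 1 and labels are piRNA numbers. Of the 39 entries, 11 lie in the upper right, 10 in the lower left and 18 in the other quadrants, with both positions of piR_000620 in the upper left.

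Separation of the genotypes was counted as both KO libraries lying on one side of both WT libraries on the TMM scale. Both KO libraries were above both WT libraries for 8 of 39 piRNA entries (20.5%), against 9.9% of all features. These were piR_000366 at both of its positions, piR_015694, piR_017405, piR_022956, piR_025576, piR_028252 and piR_030152. Both KO libraries were below both WT libraries for 5 entries (12.8%), against 11.5% of all features. These were piR_000622 on chromosomes 18 and X, piR_027673, piR_038323 on chromosome 14 and piR_038328 on chromosome 17. Scaled by library totals instead, none of these 13 entries separated the genotypes, so the separation depended on the scaling. The shares over all features were not counted on that scale. None of these 13 entries passed the adjusted test, and several share a number, so they are not 13 independent observations.

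Among the entries higher in KO, piR_000366 of 27 bases was listed on chromosomes 17 and 6 and lay above WT in both pools at both positions. Its UMIs were 159 (WT) and 224 (KO) in pool 1 and 94 (WT) and 154 (KO) in pool 2 at chr17:25602713-25602739, and 96, 121, 54 and 130 at chr6:86369552-86369578. Summed over both positions, KO was 1.41 times WT in pool 1 (1.20 to 1.66) and 1.41 times WT in pool 2 (1.15 to 1.73). The fitted log2 fold change at the chromosome 6 position was 0.60 with an SE of 0.44, and that at chromosome 17 was 0.42 with an SE of 0.47.

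piR_022956, of 29 bases at chr5:115112809-115112837, had the lowest unadjusted p of the entries higher in KO (0.175, adjusted p 0.9998, edgeR). Its UMIs were 38 (WT) and 44 (KO) in pool 1 and 15 (WT) and 45 (KO) in pool 2, and KO was 1.21 and 2.20 times WT in pool 1 and pool 2. piR_025576, at chrX:6405415-6405436 on the minus strand, had 93, 178, 70 and 100 UMIs in the same order, and its difference lay almost wholly in pool 1, at 1.99 times WT against 1.05 times in pool 2. piR_028975, at chrX:6405378-6405399 on the minus strand, had 31, 52, 7 and 17 UMIs, with ratios of 1.75 and 1.78, though KO pool 2 lay below WT pool 1. piR_017477, of 31 bases at chr18:67167758-67167788 on the minus strand, was listed at 0 in WT pool 1 and had 10 UMIs in the KO library of that pool. In pool 2 it had 7 (WT) and 16 (KO), and the fit that ranked it took the 0 in WT pool 1 as a count of 0.

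Among the entries lower in KO, piR_038323 at chr14:18071278-18071308 was the 1 piRNA entry with an unadjusted p under 0.05 in the main edgeR fit. It had 37 UMIs (WT) and 14 (KO) in pool 1 and 21 (WT) and 18 (KO) in pool 2, or 12.6 ± 1.57 CPM in WT and 6.29 ± 1.27 in KO (SD, n = 2). The log2 fold change was -1.0 with an SE of 0.44 (unadjusted p 0.0464, adjusted p 0.9998, edgeR). This depended on the processing: the unadjusted p by edgeR was 0.380 with total counts and 0.118 with read counts. By edgeR it was 0.0497 with DESeq2-type size factors, 0.0477 with no filter and 0.0357 with pool number as a block. At its position on chromosome 13 it had 44, 24, 14 and 21 UMIs in the same order, with KO at 0.568 times WT in pool 1 (0.331 to 0.955) and 1.10 times in pool 2 (0.533 to 2.34). On chromosome 9 it had 38, 40, 31 and 42, with ratios of 1.10 and 0.992.

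On the TMM scale piR_038328, of 30 bases, was lower in KO at each of its 4 positions in both pools. These positions share a number and are not independent observations. In pool 2 the counting interval of the ratio included 1 on chromosomes 17 (0.491 to 1.42), 19 (0.343 to 1.40) and 6 (0.403 to 1.68). In pool 1 the interval included 1 on chromosomes 19 (0.398 to 1.07) and X (0.546 to 1.10). On chromosome 17 piR_038328 had 66, 29, 29 and 33 UMIs in WT pool 1, KO pool 1, WT pool 2 and KO pool 2. Chromosome 19 had 46, 29, 19 and 18, chromosome 6 had 55, 32, 17 and 19, and chromosome X had 79, 59, 28 and 18. Summed over the 4 positions, KO was 0.631 times WT in pool 1 (0.511 to 0.777) and 0.693 times in pool 2 (0.512 to 0.938). The summed level was 91.0 and 50.8 CPM in WT pool 1 and pool 2 and 57.4 and 35.2 in KO, so KO pool 1 stood above WT pool 2 and the genotypes overlapped. piR_027673, of 22 bases at chr11:106317081-106317102 on the plus strand, had 100, 81, 91 and 56 UMIs, with ratios of 0.844 and 0.451.

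On the TMM scale, pool number separated the libraries for more features than genotype did. Both pool 1 libraries were above both pool 2 libraries for 11 of 39 piRNA entries (28.2%), against 28.8% of all features. Both pool 2 libraries were above both pool 1 libraries for 8 entries (20.5%), against 28.4% of all features. The first of these shares was close to the background. The median pool 1 over pool 2 ratio of piRNA entries was 1.14 in WT and 1.02 in KO, beside 1.03 and 0.992 for microRNAs.

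Many entries lay close together. Entries on 1 chromosome and strand within 10000 bases of each other formed 16 runs, which held 45 of the 88 piRNA entries listed in any library and 27 of the 51 shared ones. The 4 runs that hold piR_000620, piR_000958 or the numbers that neighbour piR_000620 (piR_000622, piR_000616 and piR_001570) were summed: chr17:39454472-39456254, chr18:54824345-54824734, chr2:5296560-5296603 and chr3:5843412-5843811. They were picked for these numbers, and piR_000620 and piR_000958 were already known to be the most abundant. Alone, that pair took 87.1% of piRNA UMIs (WT) and 80.7% (KO) in pool 1 and 58.0% (WT) and 72.7% (KO) in pool 2. The large summed share of these runs is therefore mostly set by the choice. The run on chromosome 2 held only 60 and 59 UMIs in WT and KO of pool 1 and 107 and 123 in pool 2. The 13 shared entries of the 4 runs took 91.3% of piRNA UMIs (WT) and 86.7% (KO) in pool 1 and 72.2% (WT) and 83.5% (KO) in pool 2. The other 12 runs held 14 shared entries and 1.51%, 2.25%, 2.45% and 2.02% of piRNA UMIs in the same order.

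The same piRNA numbers recurred across these runs. piR_000622, piR_000616 and piR_001570 lie together on the minus strand of chromosome 2 and on the plus strand of chromosome 3. At both places piR_000622 shared 17 bases with piR_000616 and 14 with piR_001570, while piR_000616 and piR_001570 shared 29. piR_000622 also lies in 1 run with piR_000620 on chromosome 18, and piR_000620 recurs on chromosome 3. Overlapping entries share sequence, so their counts are not independent. On chromosome X, piR_028975 and piR_025576, each of 22 bases, lie 15 bases apart on the minus strand, and both had more scaled UMIs in KO than in WT in each pool. In scaled reads, piR_025576 in pool 2 was at 0.982 times WT.

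Lengths, computed from the positions in the names, ran from 21 to 32 bases with a median of 28. There were 42 entries of 24 to 32 bases, and they held 96.4%, 93.8%, 91.8% and 94.2% of piRNA UMIs in WT pool 1, KO pool 1, WT pool 2 and KO pool 2. The other 9 entries were 21 to 23 bases long, the usual size of a microRNA, and included piR_017405, piR_032865, piR_027673, piR_025576 and piR_028975. The short entries had a median KO over WT ratio of 1.18 in pool 1 and 1.05 in pool 2, beside 0.949 and 0.973 for the longer ones.

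**Figure D4:**
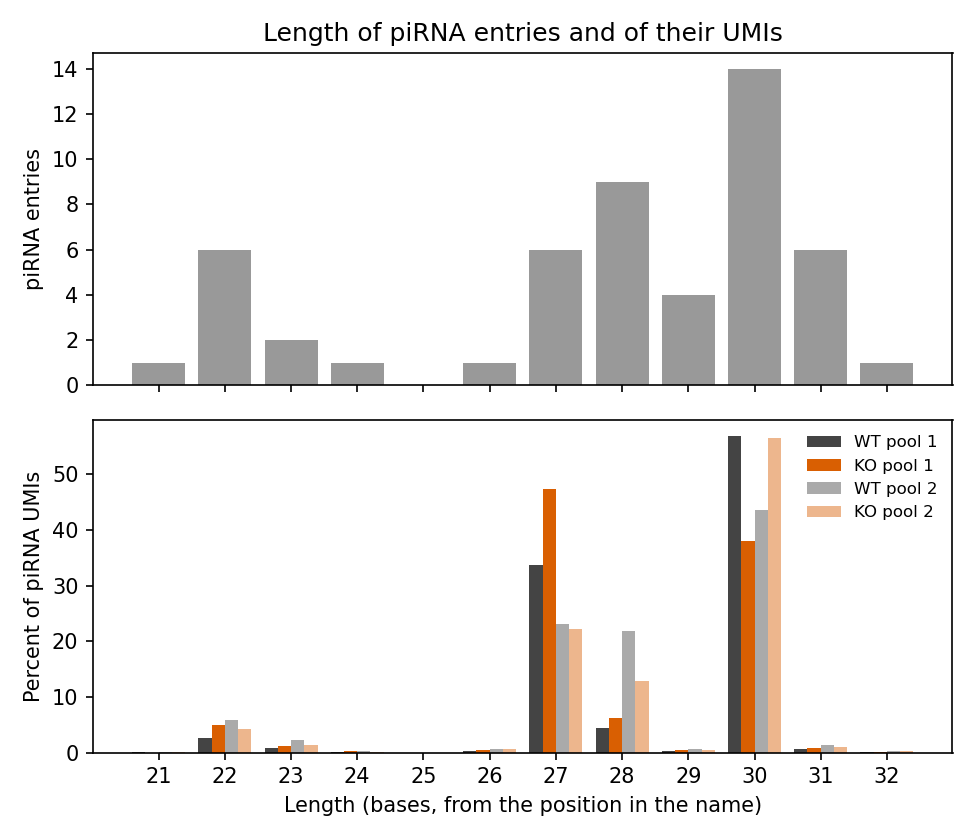
Number of the 51 piRNA entries at each length in bases (upper panel) and percent of piRNA UMIs at each length in each library (lower panel, 1 bar per library, no error bars). The 27-base and 30-base bars, which hold piR_000958 and piR_000620, are the tallest in every library.

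Read counts were deposited beside UMI counts, and their ratio says how many reads stood behind each tagged molecule. piRNA entries had 5.19 reads per UMI (WT) and 5.69 (KO) in pool 1 and 1.65 (WT) and 2.07 (KO) in pool 2. MicroRNAs had 5.29, 5.70, 1.69 and 2.11 in the same order, so piRNAs and microRNAs had like ratios in each library and pool 1 had more reads per molecule than pool 2. This difference in reads per molecule lay between the same libraries as the difference in piRNA share, and its part in that share was not tested.

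Single piRNAs departed from this. Among the 16 entries with 50 or more UMIs in every library, piR_025576 had the fewest reads per UMI in each, at 1.82, 1.85, 1.27 and 1.52 in WT pool 1, KO pool 1, WT pool 2 and KO pool 2. The medians of the 474 microRNAs with that depth were 5.79, 6.11, 1.72 and 2.18. piR_028975, its neighbour on chromosome X, had 2.55, 1.77, 1.29 and 1.35. piR_000620 on chromosome 3 had 3.45, 4.12, 1.52 and 1.85, below the 4.99, 5.38, 1.60 and 2.01 of the same piRNA on chromosome 18. For a few entries UMIs and reads gave different ratios: piR_004086 in pool 1 had a KO over WT ratio of 1.35 in UMIs (17 against 22 UMIs in WT and KO) and 0.487 in reads (65 against 32 reads). In pool 2 its ratio was 0.366 in UMIs and 0.237 in reads. The side changed in pool 2 for piR_025576 (1.05 in UMIs, 0.982 in reads) and piR_023189 (1.56 and 0.932). piR_032015 in pool 1 had 1.28 in UMIs and 2.45 in reads.

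**Figure D5:**
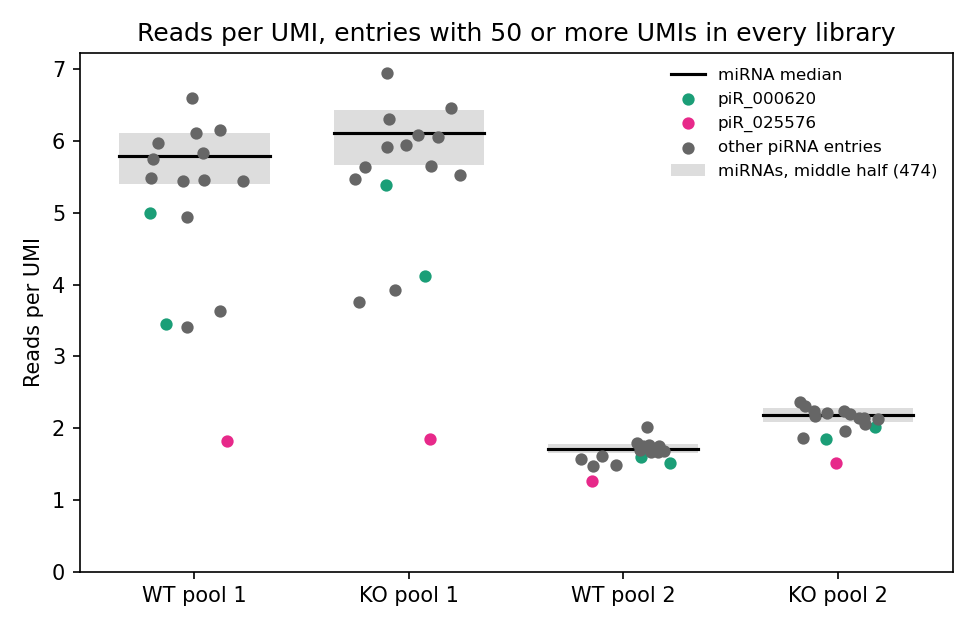
Reads per UMI (vertical axis) in each library for the 16 piRNA entries with 50 or more UMIs in every library (points), beside the middle range from lower to upper quartile and the median of 474 microRNAs with that depth (bars and lines). Most points lie within or near the microRNA range, with piR_025576 lowest in every library.

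Entries listed in only 1 pool number were all of low count. There were 16 in pool 1 only, with at most 32 UMIs, and 21 in pool 2 only, with at most 38. Within each pool number every listed feature had 10 or more UMIs in at least 1 of its 2 libraries, so an entry listed in 1 pool number may be present below that count in the other. In pool 1 the highest were piR_034987 with 32 UMIs in WT and 23 in KO, and piR_024313 with 29 and 18. piR_019406 with 22 and piR_024652 with 20 UMIs in WT were listed at 0 in KO, and piR_009321 with 16 UMIs in KO was listed at 0 in WT. In pool 2 the highest were piR_000691 on chromosome 8, with 38 UMIs in WT and 13 in KO, and piR_000935, with 14 and 22. piR_002728 had 5 and 16, piR_014537 had 2 and 15, and piR_017137 had 15 UMIs in KO and was listed at 0 in WT. Entries were ranked by the higher of their 2 libraries, and others tied at 15 UMIs in KO. These were piR_004956 (14 in WT), piR_001341 (8), piR_000414 on chromosome 16 (7) and piR_005995 (0). Summed, the pool 1 entries had 212 UMIs in WT and 118 in KO, and the pool 2 entries 167 in WT and 257 in KO. As each is listed through its higher library, no direction is read from these sums.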

How the data were processed

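Small RNA from plasma vesicles was made into QIAseq miRNA libraries with UMIs and sequenced on a NextSeq 500, per the labels' protocols. FastQC 0.11.9 and GRCm38 (mm10) are named in the submitters' processing notes. The aligner, counter and piRNA annotation are not named in the labels or files used here. The authors deposited raw UMI counts and read counts per feature. They also deposited log2 values per library, equal to log2 of the UMI count plus a constant per library and to 0 where the count is 0; how the constants were set is not given. UMI counts of the per-library tables and of the table of the whole series did not differ for any feature (0 differences). Depth was 1606247 to 3645497 UMIs per library.

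Counts of the 1860 shared features were fitted with edgeR 4.0.16 (R 4.3.3) by genotype: TMM scaling, edgeR's filter on low counts, quasi-likelihood F-test and Benjamini-Hochberg adjustment over 1842 features. Alternatives used limma 3.58.1, DESeq2 1.42.0, other scalings, filters, read counts and the deposited log2 values. The SE given with a log2 fold change is its absolute value divided by the square root of the F statistic, so it restates that test. Shares have exact binomial 95% intervals, and ratios within a pool number have exact conditional intervals (SciPy 1.17.1). The fit was also run on simulated counts that held no difference between pool numbers. That run checked the code and does not show how well the fit finds differences in these libraries.

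piRNAs named are the 10 highest by mean level, up to 5 in each direction with the lowest unadjusted p, any that differed by 2-fold toward the same genotype in each pool, and up to 5 listed in 1 pool number. Those named beyond this, among them the positions of 1 number and the entries whose genotypes did not overlap on the TMM scale, were chosen after their values were seen. The members and lists were chosen with earlier results of these data known. Sequence features of the piRNAs and overlap with annotated genes were planned and are not analysed here, because the positions in the piRNA names could not be tied to GRCm38 or to another build.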

Additional observations from a re-analysis of the deposited data

How the results depend on the processing

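The count of features called between genotypes was 0, and that of piRNAs 0, under edgeR with DESeq2-type size factors, total counts, no filter, a mean of 100 or more UMIs, read counts or an adjusted p under 0.1, and under DESeq2, limma-voom and limma on the deposited log2 values. Leaving out 1 library in turn gave 0 to 7 features and 0 to 3 piRNAs. All calls came without KO pool 2, where the lone KO library was assumed to vary like the WT libraries, and the 3 piRNAs (piR_001570 on chromosome 2, piR_016635 and piR_016651) were all listed at 0 in KO pool 1. With pool number as a replicate block, 0 features and 0 piRNAs were called, 86 features had an unadjusted p under 0.05, and the lowest adjusted p of a piRNA was 0.902 (edgeR). Libraries of the same number correlated at 0.523 in their deviations over all features and 0.454 over piRNAs. The difference in mean piRNA share, KO minus WT, was -0.272 percentage points and ran from -1.02 to 0.479 with 1 library left out. It was reversed without WT pool 1 and without KO pool 2, at 0.479 and 0.0618. The summed KO over WT ratio in pool 1 was 0.612 with total counts, 0.702 with DESeq2-type size factors and 0.715 with reads, and in pool 2 it was 1.54 with total counts. The log2 fold change of piR_000958 was -0.15 with total counts. With 1 library left out, log2 fold changes that changed sign ran from -1.06 to 0.76 for piR_000620 on chromosome 18, -0.78 to 0.68 on chromosome 3, -0.85 to 1.20 for piR_000958, -0.33 to 0.52 for piR_002643, -2.66 to 1.45 for piR_032974, -0.74 to 0.48 for piR_004374 on chromosome 9, -0.30 to 9.91e-06 for piR_032865, -0.42 to 0.053 for piR_000622 on chromosome 3, -0.21 to 1.82 for piR_028975 and -1.02 to 0.12 for piR_038328 on chromosome 6. The causes were not tested. Depth limits most entries, which had under 100 UMIs.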
